A study of Mus musculus with 51 samples.

Results

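The genes described here belong to MHC class II presentation, and were chosen by symbol from a list of 9 genes. Of these, 3 had a row among the 40077 genes of the tables used, namely Cd74 (ENSMUSG00000024610.15), Ciita (ENSMUSG00000022504.10) and Ctss (ENSMUSG00000038642.10). H2-Aa, H2-Ab1, H2-Eb1, H2-DMa, H2-DMb1 and Ifi30 were not analysed here. Bulk RNA-seq libraries numbered 51, of which 35 came from subcutaneous mouse tumors and 16 from cultured Myc-CaP cells, a mouse prostate cancer line. The levels were followed through every tumor and cell group. The cultured cells show what Myc-CaP cells expressed without a host, and cultured B16-BL6 cells were not analysed here.

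MHC class II molecules display peptides from endocytosed proteins to CD4+ T cells. Dendritic cells, B cells and macrophages are the main cells that carry them, and IFN-γ can induce them in other cell types through the transactivator CIITA. The invariant chain, encoded by Cd74, holds the newly made class II dimer and blocks its groove. Cathepsin S, the protease encoded by Ctss, cuts the invariant chain so that a peptide can be loaded. Ciita, the transactivator gene, thus stands upstream of Cd74 in this pathway.

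B16-BL6 tumors, from a mouse melanoma line grown in female C57BL/6 mice, comprised 3 controls with a non-targeting guide RNA (sgNC) and 4 tumors with a guide RNA against Uba1 (sgUba1). Myc-CaP tumors were grown in male FVB mice and came from 3 experiments. These held 3 sgNC and 7 sgUba1 tumors, 3 tumors with the empty vector (EV) and 4 with Uba1 overexpression (OE), and 6 vehicle (Veh) and 5 TAK-243 tumors. TAK-243 inhibits UBA1, the enzyme that activates ubiquitin, and mice received 25 mg/kg intravenously 2 times a week. The mice were aged 6 to 8 weeks. Guide RNA cells were transfected with a plasmid that carries Cas9 and the guide and were then grown from single cells, and depletion of Uba1 was partial. The paper used 2 independent guides against Uba1, and the labels do not say which guide or subline each library carried. The OE cells carried a lentiviral CMV vector. Tumors were implanted in both flanks, and the labels do not say which shared a mouse. The cell libraries, 2 in each of 8 groups, were sgNC (labelled NC), sgUba1, untreated and TAK-243 cells (50 nM), each with and without IFN-γ at 1 ng/mL for 18 hours. Nothing in the labels shows that the 2 libraries of a cell group came from separate cultures, so their p-values may measure technical spread alone.

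Total expected counts lay between 8651963 and 35693092 in tumors and between 12860844 and 38032284 in cells. Uba1, the targeted gene, was at 208 to 247 CPM (counts divided by library size, with TMM factors within each experiment) in the 4 B16-BL6 sgUba1 tumors against 409 to 455 CPM in their controls. In the OE tumors it was at 631 to 747 CPM against 278 to 310 CPM with EV. In the Myc-CaP tumors labelled sgUba1, Uba1 was below every control in tumors 1 to 3 but above every control in tumors 4 to 7. Effects of guide or subline and of depletion cannot be told apart in these tumors. In cells Uba1 was at 269 to 295 CPM with sgUba1 against 525.6 to 599.7 CPM in NC. The labels call the tissue of the cell libraries prostate tumor, whereas 6 of 10 genes expressed across leukocytes, among them Ptprc, Lcp1, Laptm5 and Cd53, had at most 3 counts in each of the 16 cell libraries. The other genes of that list, Coro1a, Cd52, Arhgdib and Was, were not all so low, and the list summed to 49.8 to 117 CPM in cells and to 197 to 520 CPM in tumors.

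The promoter of Ctss is shown because this gene had no count in any cell library. Of the 3 genes, 1 matched the promoter table of RefSeq (GRCm38.p6), whose window runs 250 bases before to 50 after the start. The stretch below is chr3:95526536-95526791, plus strand, with the matches to 2 motifs in capitals.
Ctss promoter: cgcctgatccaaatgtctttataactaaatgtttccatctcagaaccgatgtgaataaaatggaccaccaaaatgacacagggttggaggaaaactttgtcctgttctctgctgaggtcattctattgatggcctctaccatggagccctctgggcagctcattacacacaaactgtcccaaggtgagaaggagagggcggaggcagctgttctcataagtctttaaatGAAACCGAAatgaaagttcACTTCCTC
The first match, to GAAANNGAA, a pattern bound by IFN regulatory factors, starts 21 bases before the transcript start, and 8.56% of the 32851 promoters in the table hold it on either strand. The second, GAGGAAGT, a pattern of ETS factors such as PU.1, lies on the minus strand, and 3.2% of promoters hold it. Both motifs were chosen after the sequence was seen. The 2 matches do not overlap, and a match is a description of the sequence only.

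The 3 genes lie apart in the genome (GRCm38, GENCODE M21). Cd74 occupies chr18:60803848-60812652 on the plus strand and contains the microRNA gene Mir5107. Ciita occupies chr16:10480059-10528418 on the plus strand, and 25888 bases of it overlap Dexi on the minus strand. Because the strand setting of the counting was not stated, reads from Ciita and Dexi cannot be told apart where they overlap. Dexi stood at 5.82 to 14.0 TPM in cells and 9.69 to 20.5 TPM in tumors. Ctss occupies chr3:95526786-95556403 on the plus strand and contains the pseudogene Hmgb1-ps5.

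Cd74 and Ctss were abundant in every tumor and at or near 0 in every cell library. Cd74, in TPM (scaled for length, so that genes can be compared), ranged from 9.93 to 484 in the 35 tumors with a median of 51.7. Its highest value in the 16 cell libraries was 0.603 TPM, and 9 of them had no count. Ctss ranged from 9.43 to 186 TPM in tumors with a median of 46.8. It had 0 counts in all 16 cell libraries, which allows up to 0.0822 to 0.241 CPM per library when a count of 0 is taken to allow 3 counts. These floors cover counting error only. Ciita was far lower than both in tumors, with 0.264 to 5.83 TPM and a median of 1.08, and it was also found in all 16 cell libraries at 0.161 to 0.396 TPM. The cell and tumor ranges thus did not meet for Cd74 and Ctss but overlapped for Ciita. The share of all genes whose ranges did not meet was not computed. Between sgNC tumors and NC cells alone, 56.2% of genes tested were called in either direction.

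**Figure D1:**
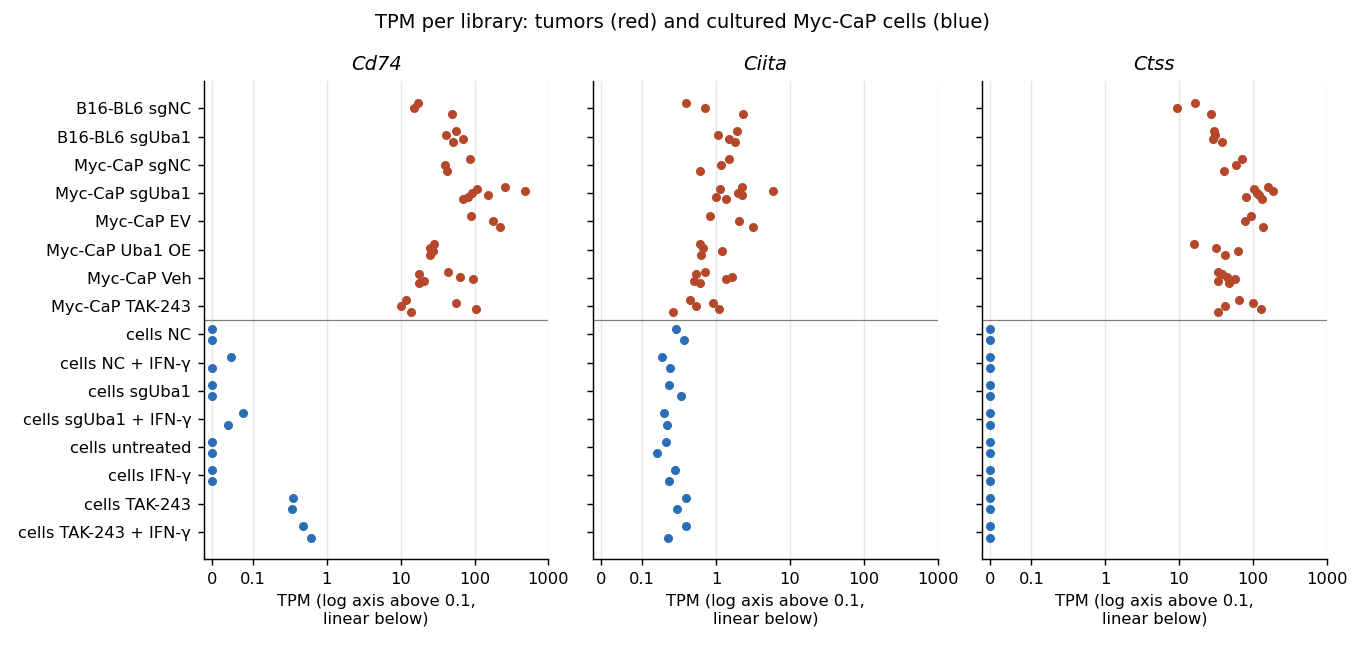
TPM of Cd74, Ciita and Ctss in each of 51 libraries, with tumors in red and cultured Myc-CaP cells in blue, on an axis that is logarithmic above 0.1. Ctss is at 0 in all 16 cell libraries and Cd74 reaches at most 0.603 TPM there, whereas Ciita in cells, at 0.161 to 0.396 TPM, meets the lower end of the tumors.

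Among tumor groups, mean TPM of Cd74 ran from 177 in Myc-CaP sgUba1 tumors through 161 with EV to 26.3 with Uba1 OE. Between those lay Myc-CaP sgNC at 56.1, B16-BL6 sgUba1 at 55.0, Veh at 42.7, TAK-243 at 39.2 and B16-BL6 sgNC at 27.4 TPM. Only EV and Myc-CaP sgNC did not overlap among neighbours in that order. Ctss was also highest in Myc-CaP sgUba1 tumors, with a mean of 128 TPM, and lowest in B16-BL6 sgNC tumors, with 17.4 TPM. Its lowest 2 groups, B16-BL6 sgUba1 at 31.9 TPM and B16-BL6 sgNC, did not overlap, and all higher neighbours did. For Ciita every neighbouring pair of tumor groups overlapped, from a mean of 2.26 TPM in Myc-CaP sgUba1 to 0.648 TPM in TAK-243 tumors.

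The tumors were compared with the cells directly in Myc-CaP, using sgNC tumors against NC cells. The counts of Cd74 summed to 1364 in the 3 sgNC tumors and to 0 in the 2 NC libraries, so that Cd74 was at least 621-fold higher in tumors, against a floor of 3 counts over the group. Ctss, with 1461 counts against 0, was at least 665-fold higher. Both genes passed the filter on low counts only through the tumors, so that their test adds nothing to these bounds. Ciita was at 2.92, 2.62 and 2.25 CPM in the sgNC tumors and at 1.18 and 1.44 CPM in NC cells, each on the scale of its own experiment. Its log2 fold change of 0.65 ± 0.25 (SE) did not pass (adjusted p = 0.0611 by the quasi-likelihood test of edgeR, adjusted by Benjamini-Hochberg over all genes, as in every comparison), and it passed under limma-voom (adjusted p = 0.0485) and on log2(TPM + 1) (adjusted p = 0.0284, limma). In this comparison 30.4% of the genes tested were called higher in tumors.

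Against NC cells given IFN-γ, Cd74 and Ctss again entered the fit only through the tumors. Cd74 had 1 count over the 2 libraries, and its ratio was 2193, with a 95% exact Poisson interval of 393 to 86668. Ctss was at least 783-fold higher. Ciita was 1.25 ± 0.26 higher on the log2 scale (adjusted p = 0.00525, edgeR), where 36.1% of genes were called higher. With Veh tumors against the untreated and IFN-γ cells of the TAK-243 experiment in their place, Cd74 was at least 268-fold and 255-fold higher and Ctss at least 279-fold and 265-fold higher. There Ciita was called against untreated cells (1.38 on the log2 scale, adjusted p = 0.0199) and not against IFN-γ cells (0.72, adjusted p = 0.143, edgeR). The share of all genes called with the Veh tumors is not given here.

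Markers of leukocytes moved with the same contrast. The summed macrophage markers lay between 160 and 978 CPM in tumors and between 14.6 and 30.5 CPM in cells, where Adgre1, C1qb, C1qc, Ms4a7 and Tyrobp were at 0 in all 16 libraries. The sum of 10 dendritic cell markers was 9.39 to 46.1 CPM in tumors and 2.87 to 4.36 CPM in cells, where Cd209a, Clec9a and Itgax were at 0. The sum of 8 B cell markers was 2.96 to 5.75 CPM in tumors and 0.704 to 3.45 CPM in cells, so that these ranges met. Fibroblast markers summed to 467 to 3144 CPM in tumors and 14.1 to 40.6 CPM in cells, and endothelial markers to 62.5 to 198 CPM and 1.03 to 4.36 CPM. In bulk tumors, more cells of a type and more RNA per cell cannot be told apart, and the part of each cell type in the levels of Cd74 and Ctss was not tested.

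IFN-γ was given to the cells to ask how they respond to it, and Ciita, the only one of the 3 genes abundant enough to be tested there, did not pass in cells in which class I genes rose. Tap1, a subunit of the peptide transporter for class I, went from 0.442 and 0.784 to 3.02 and 2.42 CPM in NC cells and from 0.958 and 0.999 to 16.2 and 16.3 CPM in untreated cells. Of 7 class I pathway genes tested, 5 rose in NC cells and all 7 in untreated cells, where 3.03% and 19.6% of genes tested were called higher. Of 19 other genes of the class II pathway tested, 4 were called higher in NC cells, among them the transcription factor Irf1 and the lysosomal proteases Ctsd and Ctsb, while 7 were called higher and 1 lower in untreated cells. Nlrc5, the class I counterpart of Ciita, was at 0 counts in both untreated libraries and at 1.62 and 1.40 CPM with IFN-γ.

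Ciita was at 1.18 and 1.44 CPM in NC cells and at 0.788 and 0.991 CPM with IFN-γ, a log2 difference of -0.55 ± 0.29 (adjusted p = 0.276, edgeR). In untreated cells it was at 0.830 and 0.624 CPM and at 1.27 and 1.08 CPM with IFN-γ, a log2 difference of 0.68 ± 0.46 (adjusted p = 0.290, edgeR). The 2 experiments thus differed in sign, and neither change passed the test. Ciita also missed an unadjusted p of 0.05 by edgeR in both. DESeq2 did not call it in NC cells (adjusted p = 0.544) and gave it no adjusted p in untreated cells. Each library held 10 to 46 counts of Ciita. Ctss had 0 counts with IFN-γ in all 8 stimulated libraries. Cd74 had 0 and 0 counts in IFN-γ cells, 1 and 0 in NC cells with IFN-γ, and 2 and 1 in sgUba1 cells with IFN-γ.

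**Figure D2:**
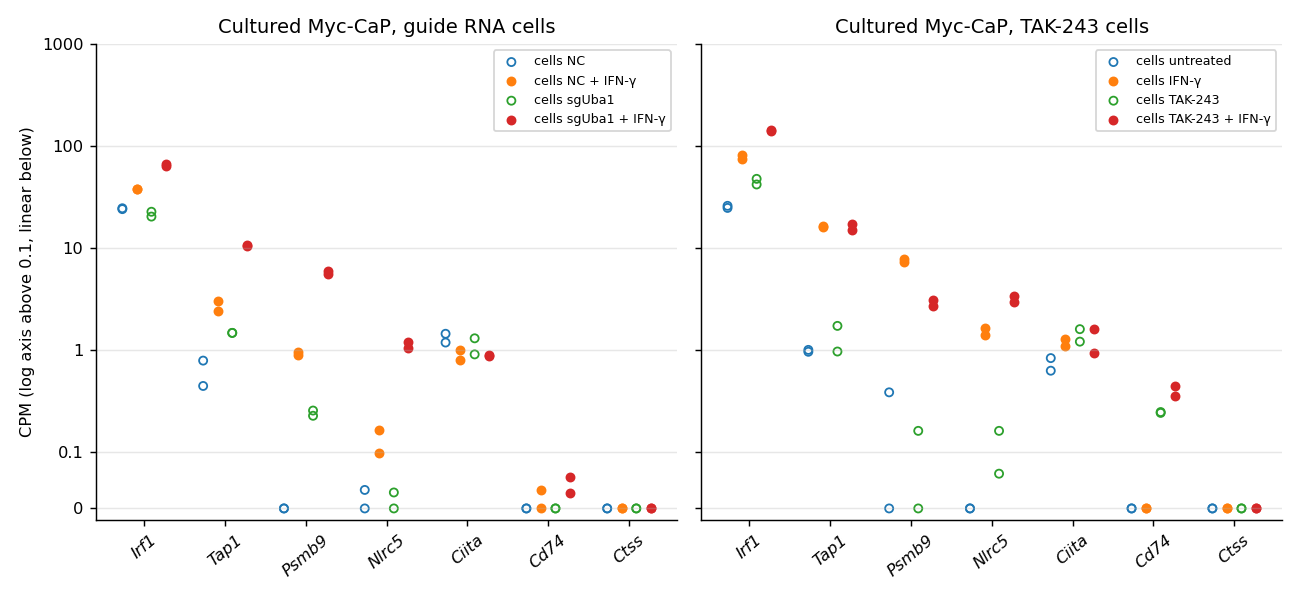
CPM of 4 IFN-γ-responsive genes and of Ciita, Cd74 and Ctss in cultured Myc-CaP cells, 2 libraries per group, on an axis that is logarithmic above 0.1. Filled points received IFN-γ. Irf1, Tap1, Psmb9 and Nlrc5 stand higher with IFN-γ, whereas Ciita stays between 0.624 and 1.62 CPM, Cd74 reaches at most 0.438 CPM and Ctss is at 0.

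Among cell groups the highest Cd74 counts were found with TAK-243, though they were few. Cd74 had 4 and 3 counts with TAK-243 and 5 and 7 counts with TAK-243 and IFN-γ, against 0 in each of the 4 libraries of untreated and IFN-γ cells. Scaled for library size, the 7 counts with TAK-243 alone stood at 2.55-fold a floor of 3 counts in untreated cells. The 12 counts with both TAK-243 and IFN-γ stood at 3.998-fold that floor in IFN-γ cells. These ratios take the 7 and 12 counts as exact, so that they are not lower limits on the difference. Cd74 was removed by the filter on low counts and so had no test, and without that filter it was called with IFN-γ (adjusted p = 0.0171, edgeR). With the filter 68.2% of genes were called in that comparison in either direction, and the share without it is not given here. Markers of other cell types moved with TAK-243 in the same cells. Without IFN-γ the summed keratinocyte markers were at 6.995 to 7.70 CPM with TAK-243 against 0.319 to 0.687 CPM in untreated cells, and skeletal muscle markers at 9.27 to 9.79 against 3.56 to 3.64 CPM. B cell markers were at 2.02 to 3.37 against 1.31 to 1.85 CPM and macrophage markers at 21.8 to 23.3 against 18.2 to 20.1 CPM, whereas pan-leukocyte markers were lower with TAK-243, at 49.8 to 51.8 against 93.2 to 96.8 CPM. The dendritic cell sums overlapped, and the part of these cell types in the counts of Cd74 was not tested. Ciita was at 1.595 and 1.20 CPM with TAK-243 against 0.830 and 0.624 CPM in untreated cells, 0.96 ± 0.45 higher on the log2 scale (adjusted p = 0.0607, edgeR), where 66.3% of genes were called. With IFN-γ present its log2 fold change for TAK-243 was 0.11 ± 0.42 (adjusted p = 0.832, edgeR).

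In sgUba1 cells Ciita did not differ from NC cells beyond the replicate error. It was at 0.903 and 1.30 CPM without IFN-γ and at 0.877 and 0.893 CPM with it. The log2 fold changes were -0.25 ± 0.27 (adjusted p = 0.543) and -0.02 ± 0.29 (adjusted p = 0.972) by edgeR. In those comparisons 29.7% and 39.4% of genes were called, while Ciita missed an unadjusted p of 0.05 and was not called by DESeq2. Across the same cells all 7 class I genes were higher with sgUba1 in the presence of IFN-γ, among them Tap1 (1.96 ± 0.16 on the log2 scale, adjusted p = 3.88e-06) and Psmb9 (2.62 ± 0.20, adjusted p = 5.18e-06, both edgeR). The interaction of sgUba1 with IFN-γ for Ciita was 0.24 ± 0.40 (adjusted p = 0.783), against 4.64% of genes called, and that of TAK-243 with IFN-γ was -0.85 ± 0.61 (adjusted p = 0.570, edgeR), against 2.38%. Neither interaction reached an unadjusted p under 0.05 by edgeR, and DESeq2 gave Ciita no adjusted p in either.

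In B16-BL6 tumors the 3 genes were higher on average with sgUba1, but none passed the test. Cd74 was at 13.1, 11.6 and 35.7 CPM in sgNC tumors 1, 2 and 4 and at 39.3, 29.7, 51.9 and 36.7 CPM in the 4 sgUba1 tumors. The groups overlapped only through sgNC tumor 4. Its log2 fold change was 0.97 ± 0.35 (adjusted p = 0.230, edgeR). Ciita was at 0.761, 1.27 and 3.51 CPM in sgNC and at 4.27, 2.95, 4.22 and 3.19 CPM in sgUba1 tumors, 0.99 ± 0.42 higher on the log2 scale (adjusted p = 0.280, edgeR). Again sgNC tumor 4 was within the range of the sgUba1 tumors. Ctss was at 13.2, 7.86 and 21.1 CPM in sgNC and at 22.5, 24.3, 23.4 and 29.6 CPM in sgUba1 tumors, where the groups did not overlap, as for 7.29% of genes in this direction. Its log2 fold change was 0.83 ± 0.26 (adjusted p = 0.186, edgeR).

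By edgeR 0 of 3 genes were called in B16-BL6 tumors, where 0.268% of genes were called higher. All 3 had an unadjusted p under 0.05, and DESeq2 and limma-voom called 0. Without sgNC tumor 4, 209 of 17807 genes were called in either direction. All 3 genes were among them, with log2 fold changes of 1.68 for Cd74 (adjusted p = 0.00977), 1.83 for Ciita (adjusted p = 0.0219) and 1.25 for Ctss (adjusted p = 0.0261, edgeR). None was called when any other tumor was left out. The library of sgNC tumor 4 thus decided the call, and it was the sgNC tumor with the highest sum of macrophage markers, at 263 CPM against 180 and 160. The macrophage sum was 271 to 329 CPM in the sgUba1 tumors, and the sum of T and NK cell markers was 12.1 to 14.7 CPM against 10.2 to 11.5 CPM in sgNC tumors. Neither of these sums overlapped between the groups, whereas those of dendritic cell, B cell and pan-leukocyte markers did. Dendritic cell markers summed to 21.4 to 24.6 CPM in sgUba1 and 18.5 to 25.7 CPM in sgNC tumors. Pan-leukocyte markers summed to 300 to 393 CPM and 307 to 316 CPM in the same order. By edgeR 0 of 16 macrophage genes (12 at an unadjusted p under 0.05) and 0 of 6 T and NK cell genes (1) were called. The part of these cell types in the levels of the 3 genes was not tested. Of 21 other class II pathway genes tested, only Nfya, a subunit of the NF-Y factor, was called (0.38 ± 0.07 higher on the log2 scale, adjusted p = 0.0406, edgeR).

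In Myc-CaP tumors Ctss rose with sgUba1. It was at 54.9, 43.8 and 31.1 CPM in sgNC tumors, and in the 7 sgUba1 tumors its lowest value was 65.9, its median 102 and its highest 131 CPM. The groups did not overlap, as for 5.54% of genes in this direction, and the log2 fold change was 1.17 ± 0.24 (adjusted p = 0.0345, edgeR). Among genes tested 1.15% were called higher. The call was lost when any of 7 of the 10 tumors was left out, sgNC tumors 2 and 3 and sgUba1 tumors 1, 4, 5, 6 and 7, with log2 fold changes of 0.98 to 1.37 and adjusted p of 0.0226 to 0.136 over the 10 fits. Without the 4 tumors in which Uba1 was above every control, the change was 1.27 ± 0.27 (adjusted p = 0.122, edgeR).

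Cd74 was at 62.3, 26.9 and 29.8 CPM in the sgNC tumors, and at 51.0 CPM at the lowest, 70.8 at the median and 317 at the highest in the 7 sgUba1 tumors. The groups overlapped, and the log2 fold change of 1.62 ± 0.61 did not pass (adjusted p = 0.147, edgeR), whereas DESeq2 gave an adjusted p of 0.0315. Ciita was at 2.92, 2.62 and 2.25 CPM in sgNC and had a lowest value of 3.10, a median of 4.22 and a highest of 14.6 CPM in sgUba1 tumors. These groups did not overlap, but the change of 1.15 ± 0.51 on the log2 scale did not pass (adjusted p = 0.199, edgeR). Cd74 and Ciita were both highest in sgUba1 tumor 3, which was also highest for Ctss. In tumors 1 to 3, with low Uba1, Cd74 was at 164, 70.8 and 317 CPM, and in tumors 4 to 7 at 69.8, 118, 61.3 and 51.0 CPM.

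**Figure D3:**
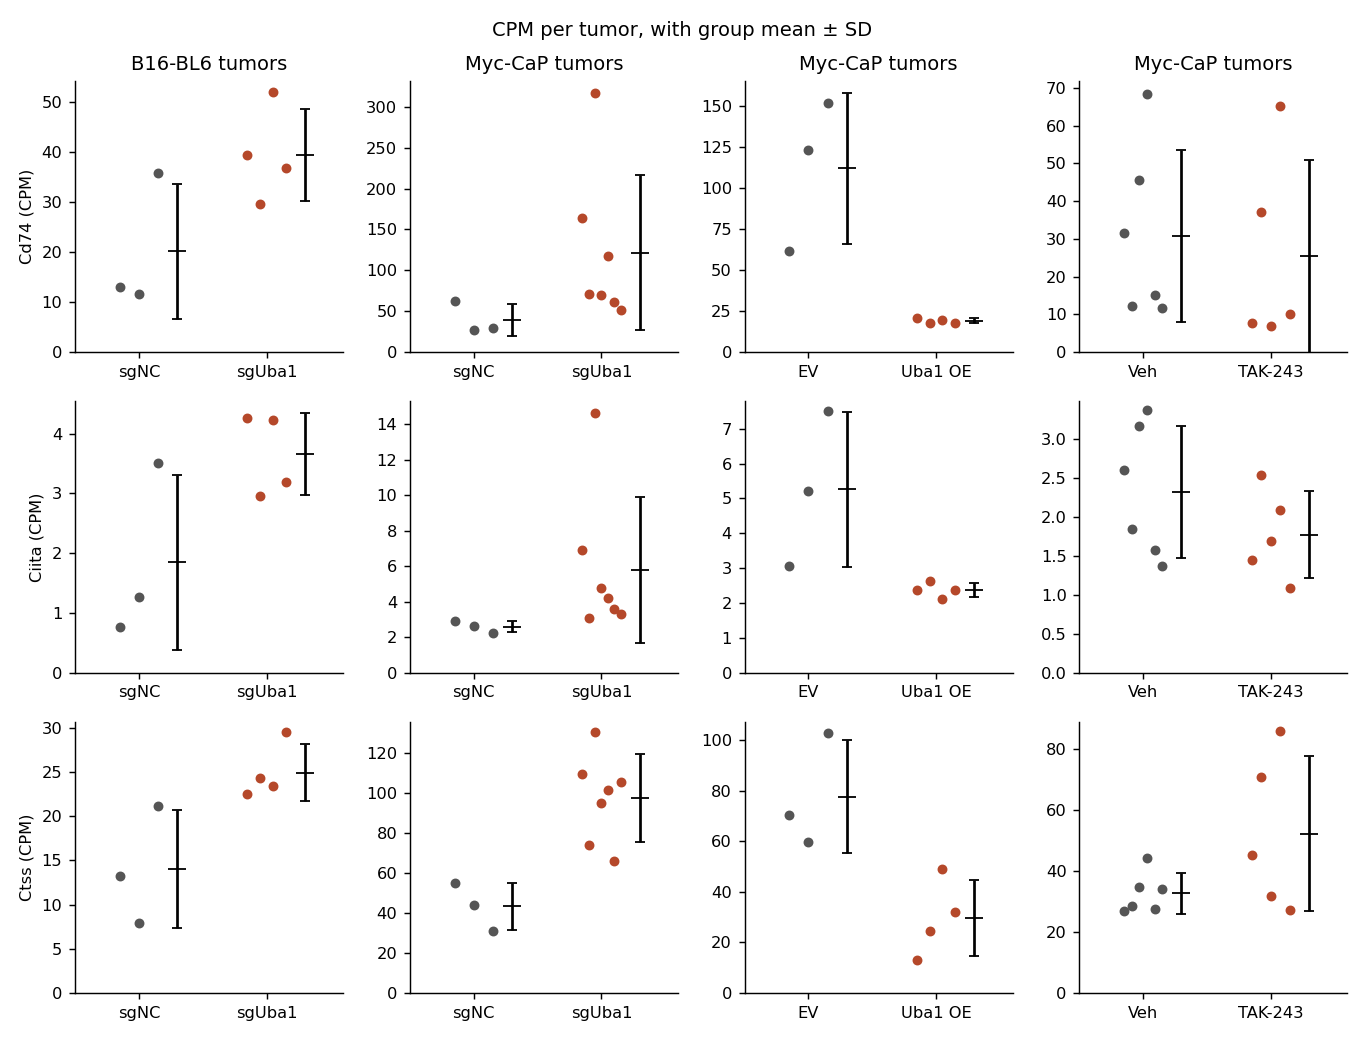
CPM of Cd74, Ciita and Ctss in each tumor of 4 experiments, with points for single tumors in replicate order and bars for the mean ± SD. Ctss in Myc-CaP sgUba1 tumors (65.9 to 131 CPM) lies above its controls (31.1 to 54.9 CPM), and Cd74 with Uba1 OE (17.7 to 21.0 CPM) lies below EV (61.5 to 152 CPM).

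H2-Ea, which encodes the α chain of the class II molecule I-E, was measured in the same tumors. It was at 0.344, 0.101 and 0.322 CPM in Myc-CaP sgNC tumors and at 0.861 CPM at the lowest, 1.61 at the median and 5.12 at the highest with sgUba1. The groups did not overlap, and each control library held 1 to 4 counts. Of 22 other genes of the pathway tested, 2 were called, H2-Ea, which passed the filter on low counts only through the sgUba1 tumors, and Ctsh, an aminopeptidase of the lysosome. Ctsh fell by 1.08 on the log2 scale (SE 0.24, adjusted p = 0.0426, edgeR). H2-Ea was at 0 counts in 6 of 7 B16-BL6 tumors and at 1 count in the other. C57BL/6 mice, in which that line is grown, are known to carry a promoter deletion of this gene. The part of that deletion in these low counts was not tested. In both models the values of H2-Ea are RNA, and I-E protein was not measured here. Whether the H2-Ea allele of FVB mice encodes a working chain was not examined. In cells H2-Ea was at 0 counts in all 16 libraries.

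Macrophage and leukocyte markers moved with sgUba1 in the Myc-CaP tumors. Of 16 macrophage genes 4 were called higher, and 15 had a positive log2 fold change, with a median of 0.80 against 0.00 over all genes tested. Their sum was 362, 390 and 657 CPM in sgNC tumors and 589 to 978 CPM in sgUba1 tumors. Of 10 pan-leukocyte genes 3 were called higher. The macrophage sums overlapped, whereas the summed T and NK cell markers did not, at 11.6 to 14.7 CPM in sgNC and 15.4 to 36.0 CPM in sgUba1 tumors. Of 7 T and NK cell genes tested 0 were called (3 at an unadjusted p under 0.05, edgeR), with a median log2 fold change of 0.85. The 3 class II genes had a median log2 fold change of 1.17, and of the 7 class I genes 0 were called (2 at an unadjusted p under 0.05, edgeR), with a median of 0.44. The part of the markers in the change of Ctss was not tested.

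The sgUba1 effects in the 2 tumor models were compared with each other in a single fit. The difference, Myc-CaP minus B16-BL6, was 0.65 ± 0.77 for Cd74 (adjusted p = 0.701), 0.18 ± 0.72 for Ciita (adjusted p = 0.936) and 0.35 ± 0.38 for Ctss (adjusted p = 0.666) on the log2 scale by edgeR. None of the 3 genes passed, also at an unadjusted p under 0.05 or by DESeq2, where 1.52% of genes tested did by edgeR. The effects were thus not shown to differ between models.

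In tumors with Uba1 OE, Cd74 fell. It was at 61.5, 123 and 152 CPM with EV and at 21.0, 17.7, 19.5 and 17.99 CPM with OE. The lowest EV tumor was higher than every OE tumor, and the OE tumors lay close together. Cd74 fell by 2.56 on the log2 scale (SE 0.27, adjusted p = 0.0425, edgeR). Of 14853 genes tested it was the only one called lower, 0.00673% of them, and 4 genes were called in either direction. DESeq2 gave Cd74 an adjusted p of 2.35e-16, whereas limma-voom gave 0.144 and limma on log2(TPM + 1) 0.0576. The call was lost without EV tumor 2 (adjusted p = 0.210), EV tumor 3 (0.127), OE tumor 2 (0.219) or OE tumor 3 (0.151), with log2 fold changes between -2.85 and -2.27 over all fits that left out 1 tumor.

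Ciita was at 3.06, 5.21 and 7.51 CPM with EV and at 2.38, 2.63, 2.12 and 2.36 CPM with OE, a log2 difference of -1.15 ± 0.30 (adjusted p = 0.141, edgeR). Ctss was at 70.4, 59.7 and 103 CPM with EV and at 13.2, 24.6, 49.0 and 32.0 CPM with OE, a log2 difference of -1.38 ± 0.38 (adjusted p = 0.151, edgeR). For all 3 genes every OE tumor was below every EV tumor, as for 10.1% of the genes tested. DESeq2 called all 3 genes, and it called 723 of the 14853 genes tested in either direction.

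Leukocyte markers moved with OE to differing degrees. Dendritic cell markers summed to 16.1 to 23.2 CPM with EV and 9.81 to 14.998 CPM with OE, and T and NK cell markers to 19.5 to 25.6 CPM and 6.84 to 13.4 CPM, and neither overlapped between the groups, as Cd74 did not. The summed macrophage markers did overlap. Their sum was 475, 506 and 592 CPM with EV and 182, 368, 607 and 384 CPM with OE, so that OE tumor 3 had the highest sum of all 7 tumors, while its Cd74 was at 19.5 CPM. Ctss in that tumor, at 49.0 CPM, was the highest of the OE group. Of the 16 macrophage genes 0 were called (6 at an unadjusted p under 0.05, edgeR), and 2 had a positive log2 fold change. The median log2 fold change of the macrophage list was -0.60, that of the 7 class I genes -0.82 and that of the 3 class II genes -1.38, beside 0.00 over all genes. That of the 5 dendritic cell genes tested was -0.57 and that of the 2 T and NK cell genes -0.88. The part of these cell types in the fall of Cd74 was not tested.

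**Figure D4:**
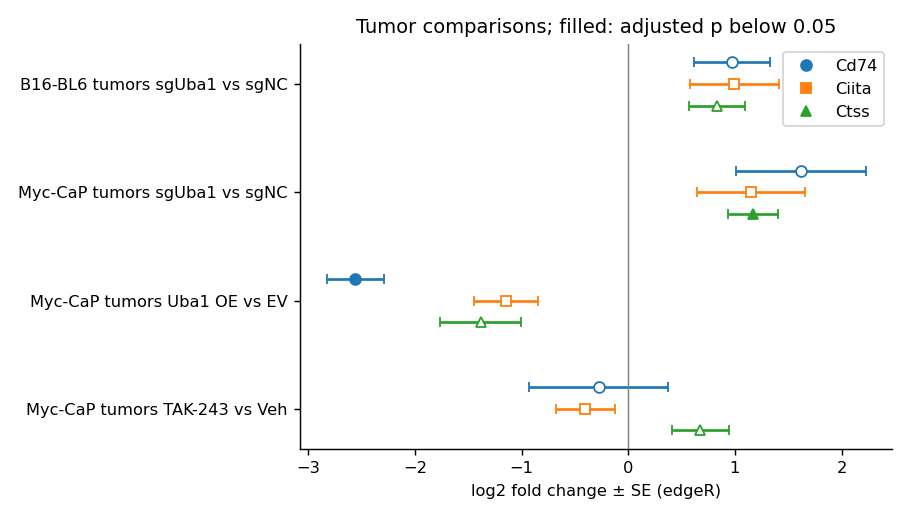
Log2 fold changes (edgeR, with SE bars) of Cd74, Ciita and Ctss in the 4 tumor comparisons, with filled symbols for an adjusted p below 0.05. Only Ctss with sgUba1 in Myc-CaP (1.17) and Cd74 with Uba1 OE (-2.56) are filled, and the 3 genes lie on different sides of 0 with TAK-243.

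With TAK-243 no class II gene passed the test in tumors. Ctss was at 26.9 CPM at the lowest, 31.3 at the median and 44.4 at the highest in 6 Veh tumors, and at 45.2, 71.0, 31.7, 86.1 and 27.3 CPM in the 5 TAK-243 tumors. The groups overlapped, and its log2 fold change was 0.68 ± 0.27 (adjusted p = 0.278, edgeR). Cd74 was at 11.8 CPM at the lowest, 23.3 at the median and 68.4 at the highest with Veh and at 7.66, 37.3, 6.96, 65.2 and 10.1 CPM with TAK-243, a log2 difference of -0.28 ± 0.65 (adjusted p = 0.866, edgeR). Tumors 2 and 4 of the TAK-243 group were high for both genes, and the other 3 had less Cd74 than any Veh tumor. Ciita was at 1.37 CPM at the lowest, 2.22 at the median and 3.37 at the highest with Veh and at 1.45, 2.53, 1.69, 2.09 and 1.09 CPM with TAK-243 (log2 fold change -0.40 ± 0.28, adjusted p = 0.518, edgeR).

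By edgeR 0 of 3 genes were called with TAK-243, where 0.145% of genes were called in either direction. Ctss alone had an unadjusted p under 0.05, and DESeq2 and limma-voom called 0. The TPM of Cd74 divided by that of Ctss had a median of 0.927 in Veh tumors (0.376 to 1.65) and of 0.405 in TAK-243 tumors (0.185 to 0.815). These ranges overlapped and the ratio was not tested. The summed macrophage markers were 270 to 404 CPM with Veh and 295 to 627 CPM with TAK-243, and 3 of 6 neutrophil markers tested were called higher. The dendritic cell sum was 10.3 to 13.5 CPM with Veh and 9.39 to 24.2 CPM with TAK-243, highest in TAK-243 tumor 4. Their part in the levels was not tested.

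Cd74, Ciita and Ctss varied together between tumors of the same group, and r was highest for Cd74 and Ciita. Log2 CPM was centred on each of the 8 tumor groups, and p came from 100000 permutations within groups. For Cd74 and Ciita, Pearson's r over 35 tumors was 0.794 and Spearman's rho 0.823 (permutation p = 2e-05 for each, 6e-05 after adjustment over 3 pairs). For Cd74 and Ctss r was 0.607 (permutation p = 0.00051, adjusted 0.000765) and rho 0.599 (p = 0.00108, adjusted 0.00162). For Ciita and Ctss r was 0.478 (permutation p = 0.00468, adjusted 0.00468) and rho 0.501 (p = 0.00513, adjusted 0.00513). Without the 2 tumors farthest from the median on the first gene, r was 0.796, 0.517 and 0.390. The difference between the correlations was not tested. All points share library and depth, and tumors may share a mouse, and the permutation p-values take no account of either.

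Within the 4 experiments, r of Cd74 and Ciita was 0.891 in B16-BL6, 0.894 in the Myc-CaP sgRNA, 0.915 in the OE and 0.827 in the TAK-243 tumors. That of Cd74 and Ctss was 0.744, 0.684, 0.0823 and 0.793 in the same order, and that of Ciita and Ctss was 0.522, 0.673, 0.111 and 0.630. Both values with Ctss were near 0 in the OE experiment, with 7 tumors, and their difference from the other experiments was not tested.

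**Figure D5:**
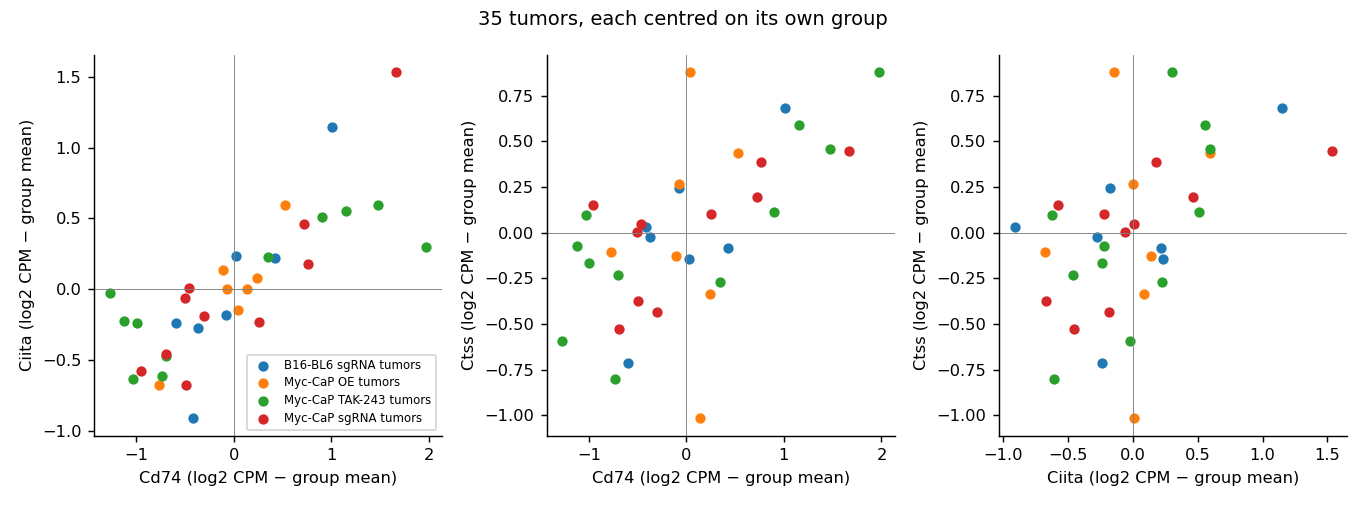
Log2 CPM of each pair of genes in 35 tumors, each value minus the mean of its own group, with a color for each experiment. Over all tumors r is 0.794 for Cd74 and Ciita, 0.607 for Cd74 and Ctss and 0.478 for Ciita and Ctss.

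The genes most like the mean of the 3 were sought among 13068 genes, over the same 35 tumors and with the same centring. The 10 highest were Ccl8 (r = 0.848), Fgl2 (0.823), Gbp4 (0.815), Iigp1 (0.800), Gbp7 (0.793), Itgal (0.785), Gbp2 (0.782), Plbd1 (0.777), Ifi47 (0.767) and Psmb9 (0.757), where the median r of all genes was -0.01. Gbp4, Gbp7, Gbp2, Iigp1 and Ifi47 encode IFN-inducible GTPases, Psmb9 is an immunoproteasome subunit, Ccl8 a chemokine and Itgal an integrin chain of leukocytes. These values are descriptions without a test, since all points share library and depth.

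Taken gene by gene, which was chosen after the values were seen, the lists differed. Those nearest Cd74 were Ccl8 (0.760), Gbp4 (0.758), Tap1 (0.756) and Itgal (0.756), and those nearest Ciita were Plbd1 (0.792), Fgl2 (0.771), Cxcl9 (0.766) and Ccl8 (0.761). The genes nearest Ctss were Bcl2a1b (0.898), Fes (0.866), Mpeg1 (0.849) and C1qa (0.845). Mpeg1 and C1qa, a complement component, are macrophage genes. The median r with 16 macrophage markers was 0.694 for Ctss, 0.217 for Cd74 and 0.297 for Ciita. With 7 class I pathway genes it was 0.446 for Ctss, 0.512 for Cd74 and 0.570 for Ciita. Marchf1, the ubiquitin ligase that removes class II molecules from the cell surface, was among the 10 nearest to Ctss (0.818).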

How the data were processed

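The members and gene lists were chosen with earlier results of these data known. Per the labels, 51 libraries were grouped by title, genotype and treatment. The authors deposited gene-level expected counts, fractional estimates that were rounded to whole numbers for the tests (the design had assumed counts), and TPM, scaled for gene length. Submitters' processing notes list kallisto and mm10; the version, annotation and strand setting are not given in the sources used here. The labels describe poly-A capture and the study's methods digestion of ribosomal RNA. Values of Cd74, Ciita and Ctss were fractional in 36, 50 and 27 of 51 libraries.

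Tests used R 4.3.3 and edgeR 4.0.16 (filterByExpr, TMM, quasi-likelihood test, Benjamini-Hochberg adjustment over all genes, threshold 0.05). Each tumor experiment was fitted alone, the 8 libraries of a cell experiment together, and sgNC tumors with NC cells together. Alternatives were RLE factors, DESeq2 1.42.0, limma-voom and limma on log2(TPM + 1) or log2(TPM + 0.1) (limma 3.58.1), no filter, a block for replicate number, only the groups compared, Veh tumors against untreated cells, sgUba1 tumors with high Uba1 left out, and each library left out. An adjusted p that DESeq2 left empty was kept empty. Scripts were tested on simulated data. For likeness and pairs, log2 CPM had a prior count of 2, and likeness needed a mean log2 CPM of at least 1. Genes named are the members, Uba1, up to 4 called genes per list and comparison, H2-Ea and Irf1, marker genes at 0 to 3 counts and the 10 genes of highest likeness. Tap1, Psmb9, Nlrc5 and Dexi were otherwise chosen after their values were seen. Some genes that this rule names are not reported here. Replicate pairs (75) all differed beyond counting noise.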

Additional observations from a re-analysis of the deposited data

Results flagged for a closer look

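In the 7 Myc-CaP tumors labelled sgUba1, tumor 3 stood apart from the others for both Cd74 and Ciita by Dixon's test on CPM. Cd74 was at 317 CPM there against 164 CPM in the next highest tumor, a gap of 0.573 of the range of the group, where 0.568 is the critical value. Ciita was at 14.6 CPM against 6.89 CPM, a gap of 0.672 of the range. On log2 CPM minus the group mean, Cd74 was at 1.66 in tumor 3, 0.724 in the next and -0.953 in the lowest. Ciita was at 1.53, 0.461 and -0.671 in the same order. The gaps were smaller shares of the range on that scale, on which the test was not run. Chance flags about 1 in 20 groups, and 15 combinations of gene and tumor group were examined. Without tumor 3 the log2 fold change of Cd74 was 1.16 and that of Ciita 0.73, and neither passed the test with or without it.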

How the results depend on the processing

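Of 215 recomputed counts of genes called, 194 stayed within 1.5 times the main count. With sgUba1 in Myc-CaP tumors, the count of 1 became 2 under DESeq2, 0 with a replicate block, 0 without the tumors with high Uba1, and 0 to 1 with each tumor left out. There DESeq2 called 1862 of 16202 genes. With Uba1 OE, the count of 1 became 3 under DESeq2, 0 under limma-voom and on either TPM scale, 0 with the replicate block, and 0 to 1 with each tumor left out. In the OE experiment DESeq2 called 723 of 14853 genes. In B16-BL6 tumors the count of 0 became 3 without sgNC tumor 4, where 209 of 17807 genes were called. It stayed 0 without any other tumor. In cells with TAK-243 and IFN-γ the count of 0 became 1 without the filter. The cause was not tested. The replicate block changed no other count, and same-numbered samples did not deviate together (correlations of -0.18 to 0.31 over the experiments), so the numbers were not taken to pair samples.

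Changes of direction affected only values that passed no test. The difference between models for Ciita was -0.32 under limma-voom. With each library left out, that difference ran from -0.68 to 0.55 for Ciita, from -0.0582 to 1.14 for Cd74 and from -0.0656 to 0.65 for Ctss, the lowest without B16-BL6 sgNC tumor 4, and Cd74 with TAK-243 in tumors ran from -0.996 to 0.11. Ciita with sgUba1 and IFN-γ in cells was 0.00019 under DESeq2 and ran from -0.16 to 0.16, and with TAK-243 and IFN-γ from -0.32 to 0.45. Depth was low for Ciita in cells, with 10 to 46 counts, and for Cd74 there, with at most 7, and its effect was not tested.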

Other observations

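Ciita counts may come from different transcripts in cells and tumors. The TPM of Ciita per CPM, which falls as the transcripts to which reads were assigned grow longer, was 0.212 to 0.256 (median 0.245) in the 16 cell libraries and 0.255 to 0.650 (median 0.377) in the 35 tumors. It also moves with the composition of each library, and was not tested.

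Skeletal muscle markers had log2 fold changes of 1 sign within each tumor comparison, and 0 were called in any by edgeR, where 0 to 3 had an unadjusted p under 0.05. With sgUba1 all 7 tested in B16-BL6 tumors were positive (median 1.72), as were all 6 in Myc-CaP tumors (median 1.52), and with Uba1 OE all 5 were positive (median 3.33). With TAK-243 all 7 were negative (median -1.53). The summed muscle markers overlapped between the groups in each tumor comparison, and single groups ranged widely. The sums were 5.64 to 429 CPM (median 9.89) with Veh and 8.62 to 34.0 CPM (median 9.53) with TAK-243. They were 6.96 to 629 CPM with OE and 6.01 to 8.68 CPM with EV. In B16-BL6 tumors they were 8.29 to 375 CPM with sgUba1 and 7.23 to 99.1 CPM with sgNC. The part of single tumors in the shared signs was not tested.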
